A study of Mus musculus with 143 samples.

Results

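The genes described here are the heat shock proteins, chaperonins and co-chaperones of mouse striatum, taken as every protein-coding gene of the count table with a symbol of the series Hspa, Hspb, Hspd, Hspe, Hsph and Hsp90, Dnaja, Dnajb and Dnajc, Cct2 to Cct8, or Bag1 to Bag6. The matrix proteoglycan Hspg2 shares the prefix and was left out. The rule gave 88 of 41128 genes, of which 77 had enough reads to be tested in each of the 3 strategies below. The 11 that did not were Cct6b, Cct8l1, Dnajb7, Dnajb8, Dnajc22, Dnajc5b, Dnajc5g, Hspb2, Hspb3, Hspb7 and Hspb9. The rule used names only, and it was set with earlier results of these data known. RNA of the striatum came from 143 mice, either zQ175 knock-in animals, a model of Huntington's disease whose own Htt gene carries an expanded CAG repeat in every cell, or wild type (WT) animals. They were untreated, or were given a small interfering RNA, either NTC, which has no target, or HTT-10150, directed at Htt. Treatment fell at 2 months in strategy 2[4]6 (tissue taken at 6 months), at 6 months in 6[4]10 (tissue at 10), and at both ages in 2+6[8]10 (tissue at 10). Untreated animals carry the strategy name of their cohort, and only their age at collection applies to them. Each of the 18 groups held 8 mice, 4 female and 4 male, except WT given HTT-10150 in 2+6[8]10 with 2 female and 5 male.

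Chaperones of the Hsp70 class bind unfolded stretches of protein and release them in cycles driven by ATP. J proteins (Dnaja, Dnajb, Dnajc) deliver clients and trigger ATP hydrolysis, while nucleotide exchange factors (the Hsp110 class and the Bag proteins) reset the cycle. Hsp90 works later on near-folded clients, the Cct ring encloses actin, tubulin and other proteins, and small heat shock proteins hold aggregating ones. Several members are known to slow the aggregation of polyglutamine proteins such as mutant huntingtin, among them Dnajb6, Dnajb2 and Cct subunits. The heat shock factor Hsf1 drives the inducible members through inverted repeats of the letters GAA, and the stress response of the endoplasmic reticulum drives Hspa5, Hsp90b1 and their partners through another element.

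Library totals ran from 12.55 to 29.19 M counts, with a median of 18.85 M. The targeted gene checks the labels, in counts per 1000000 after TMM scaling (CPM). In 2+6[8]10 the highest Htt with HTT-10150 (132 CPM in WT, 120 in zQ175) lay below the lowest with NTC (149 and 131), and in WT of 2[4]6 the same held (146 and 147). The ranges of 6[4]10 overlapped, with up to 148 CPM against up to 172 in WT and 86 to 119 against 110 to 146 in zQ175. In zQ175 of 2[4]6 median Htt was 127 with NTC (112 to 148) and 128 with HTT-10150 (112 to 139), so Htt was not lower in the group labelled HTT-10150. The table does not separate the Htt alleles. A library stood apart from its group: untreated zQ175 male 2 of 6[4]10 had 85.7 CPM of Htt, where the group median was 128, and lay outside the range of the other 7 animals in 51 of the 77 tested members, against 5 to 26 members for each of the others. Results of that group are given with it, and without it for some of the calls that changed, an alternative chosen after seeing the data. The tissue label fits the defining markers of striatal medium spiny neurons, which summed to between 7862 and 11422 CPM in untreated WT and between 4919 and 6319 in untreated zQ175.

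Stretches of 8 promoters are shown first, chosen among members with the heat shock letters or the endoplasmic reticulum letters within the 300 bases from 250 before to 50 after the start. Hspa1a, Hspa1b, Hspb1 and Hspa5 are among the 6 members that varied most between animals, and the other 4 are anchors or partners in the correlations at the end. Dnajb13 and Dnajb3, also among those 6, had no match to these letters in a window. RefSeq windows on GRCm38.p6 matched 72 of the 88 members. The letters searched on both strands were GAANNTTC and TTCNNGAA, which overlap, GAANNTTCNNGAA, which holds both, and, for the endoplasmic reticulum stress element, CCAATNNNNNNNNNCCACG. GAANNTTCNNGAA stood in 4 of the 72 members (5.56%: Dnajb6, Hspd1, Hspe1, Hsph1) and in 0.662% of all genes with a window. GAANNTTC stood in 17 members (23.6%), against 9.04% of all genes, and TTCNNGAA in 8 (11.1%), against 9.6%. The endoplasmic reticulum element stood in 3 members (4.17%: Hspa5, Hsp90b1, Dnajc3), against 0.137% of all genes. A match is a description of the letters and was not tested as a binding site. The capitals below mark the matched letters, and each line is read 5′ to 3′ on the strand of its gene.
Hspa1a (chr17:34972241-34972272, minus strand): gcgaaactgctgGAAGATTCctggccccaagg
Hspa1b (chr17:34959323-34959354, minus strand): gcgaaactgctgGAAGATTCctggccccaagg
Hsph1 (chr5:149636350-149636381, minus strand): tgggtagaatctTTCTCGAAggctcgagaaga
Hspe1 (chr1:55088047-55088088, plus strand): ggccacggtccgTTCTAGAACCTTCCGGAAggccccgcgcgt
Dnaja1 (chr4:40722332-40722363, plus strand): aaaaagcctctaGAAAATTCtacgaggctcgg
Hspb1 (chr5:135887790-135887841, plus strand): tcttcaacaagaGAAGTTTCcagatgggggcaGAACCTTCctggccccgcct
Hspa5 (chr2:34772013-34772055, plus strand): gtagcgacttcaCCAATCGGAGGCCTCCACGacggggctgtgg
Dnajc3 (chr14:118937815-118937857, plus strand): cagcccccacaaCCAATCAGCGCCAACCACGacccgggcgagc
The Hspa1a and Hspa1b windows were identical at 296 of 300 bases (98.7%). Reads that fall in sequence shared by this pair cannot be assigned to 1 of them, so their values are best read together.

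Per length, a handful of members made up much of the family. On the deposited TPM scale, which corrects for transcript length and so allows genes to be compared, the family summed to 9052 ± 647 TPM (SD, n = 143 animals). The constitutive Hsp70 Hspa8 stood at 1616 ± 231 TPM, the cytosolic Hsp90 Hsp90ab1 at 1454 ± 148 and its partner Hsp90aa1 at 687 ± 81.2. These 3 genes held 41.4% ± 1.9 of the family, and 43.7% when counts per kilobase of transcript were used instead. Next came Hsp90b1, the Hsp90 of the endoplasmic reticulum, at 260 ± 28.3 TPM, and Dnaja1, a cytosolic partner of Hspa8, at 254 ± 24.5. In all, 25 members averaged over 100 TPM and 12 under 1. The most abundant member was Dnajb6 (152 TPM) among Dnajb genes, Dnajc7 (200) among Dnajc genes and Hsph1 (177) in the Hsp110 class. It was Hspe1 (180) in the mitochondrial Hsp60 and Hsp10 pair, Cct7 (143) in the ring and Bag6 (171) among Bag genes. Among the Hspb genes, grouped here by symbol only, it was Hspb11 (21.6). At the other end were Hspb7 (0.0456 TPM), Dnajb8 (0.0163), a suppressor of polyglutamine aggregation, Dnajc5g (0.00316) and Cct6b (0.169). The heat-inducible Hspa1a (7.47 ± 4.52 TPM) and Hspa1b (4.61 ± 5.13) were, with Hspa1l (6.46 ± 0.937) and Hspa12b (5.89 ± 1.02), the lowest of the Hsp70 class, and these 4 do not differ from each other beyond their spread.

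Mean summed TPM was higher in zQ175 for the Hsp90, Hsp70 and Cct genes in each untreated comparison, and nearly level for the Dnajc genes. The Hsp90 genes, the most abundant class, summed to 2297 ± 76.7 TPM in untreated WT of 2[4]6 and 2464 ± 152 in zQ175 (n = 8 each), to medians of 2222 and 2579 in 6[4]10, and to medians of 2222 and 2550 in 2+6[8]10, with ranges that overlapped in all 3. In untreated 2[4]6 animals the Cct genes summed to 812 ± 27.5 TPM in WT and 911 ± 32.5 in zQ175 (n = 8 each), in 6[4]10 to 794 ± 25.3 and 925 ± 32.1, and in 2+6[8]10 to 781 ± 23 and 879 ± 16.8. The lowest zQ175 sum was above the highest WT sum in each of these strategies. The Hsp70 genes summed to a median of 1941 TPM in untreated WT of 2[4]6 (highest 2029) and 2284 in zQ175 (highest 2418), to 1980 ± 277 and 2464 ± 209 in 6[4]10, and to 1874 ± 183 and 2335 ± 95.3 in 2+6[8]10. The Dnajc genes differed little, with 1238 ± 16.8 and 1273 ± 30.7 TPM in 2[4]6 and 1266 ± 25.1 and 1273 ± 26.9 in 2+6[8]10. These sums are descriptions, and TPM is scaled to the whole transcript pool of a library, which differs between genotypes. All tests below use counts with TMM scaling.

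**Figure D1:**
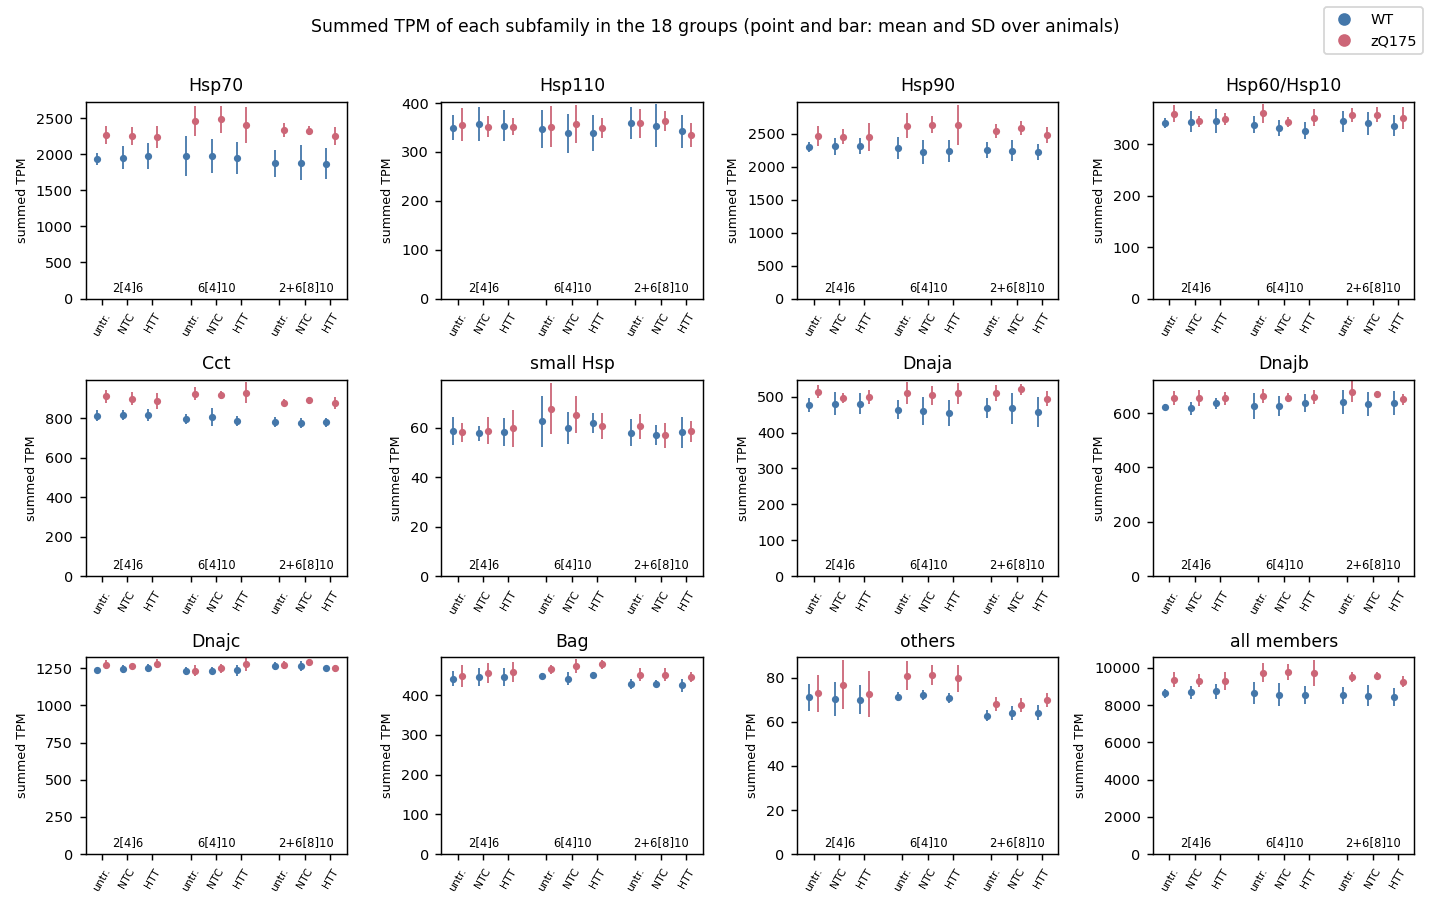
Summed TPM of each subfamily (vertical axes, starting at 0) in the 18 groups, ordered by strategy and treatment; points and bars are group mean and SD, and colours are genotypes. The Cct sum is higher in zQ175 in the untreated groups of all 3 strategies (911 against 812 TPM in 2[4]6), while the Dnajc sum is nearly level (1273 against 1238).

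Between untreated zQ175 and WT animals, the Hsp70 genes Hspa2, Hspa8, Hspa12a and Hspa13, the ring subunits Cct2, Cct4 and Cct6a, the exchange factor Bag2 and the J proteins Dnajc6, Dnajc12, Dnajc15 and Dnajc18 were called higher in zQ175 in all 3 strategies. The J proteins Dnajc8, Dnajc2 and Dnajc7 and the small Hsp gene Hspb8 were called lower in all 3, and the endoplasmic reticulum chaperone Hsp90b1 in 2[4]6 and 2+6[8]10. The Hsp70 genes Hspa5 and Hspa9 were called in none. A gene was called where its edgeR p, adjusted by Benjamini-Hochberg across the strategy's tested genes, was under 0.05. In 2[4]6, 18 of 77 members were called higher (23.4%), against 15.3% of all genes, and 10 lower (13%), against 17.2%. For 6[4]10, 26 were higher (33.8%), against 19.2% of all genes, and 7 lower (9.09%), against 17%. In 2+6[8]10, 17 were higher (22.1%), against 17.1%, and 8 lower (10.4%), against 18.3%. The median log2 fold change of the members was 0.00, 0.08 and 0.01 in the 3 strategies, beside 0.00, 0.01 and 0.00 for all genes. Without the untreated zQ175 male 2, 28 members in place of 33 were called in 6[4]10, and 7 of the 33 calls fell short. The differences were small: in 2[4]6 the log2 fold changes of the members ran from -0.32 (Hspb1, not called) to 0.52 (Bag2).

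The same genotype comparison was made in animals given NTC, in the same fit, so that the untreated animals set neither mean but share the estimates of spread and sex. It called 11 members higher and 16 lower in 2[4]6, where 15.9% and 18.5% of all genes were called. It called 17 members of 6[4]10 higher and 8 lower (all genes 16.8% and 15.9%), and in 2+6[8]10 20 higher and 10 lower (all genes 20.7% and 21.4%). Of the calls in untreated animals, 10 of 18 higher and 8 of 10 lower members were also called in NTC animals of 2[4]6 (10 of 11 and 8 of 16 as shares of the NTC calls). In 2+6[8]10 the shared calls were 15 of 17 higher and 7 of 8 lower, which is 15 of 20 and 7 of 10 of the NTC calls. For 6[4]10 they were 15 of 26 and 3 of 7, or 15 of 17 and 3 of 8. Fitted on the NTC groups alone, 21, 29 and 28 members were called, and of the 82 calls 72 were kept. No member was called in opposite directions in any 2 of the 6 comparisons. Called higher in all 6 were Bag2, Cct2, Cct6a, Dnajc6, Dnajc18, Hspa2, Hspa8, Hspa12a and Hspa13, and called lower in all 6 were Dnajc2, Dnajc7 and Dnajc8. Another 23 members were called in none, among them Dnajb1, Dnajb2, Dnajb6, Dnaja1, Hsph1, Hspd1, Hspa5, Hspb1, Bag3 and Cct7. No share of all genes is given for these counts over the 6 comparisons, so they describe the members only.

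**Figure D2:**
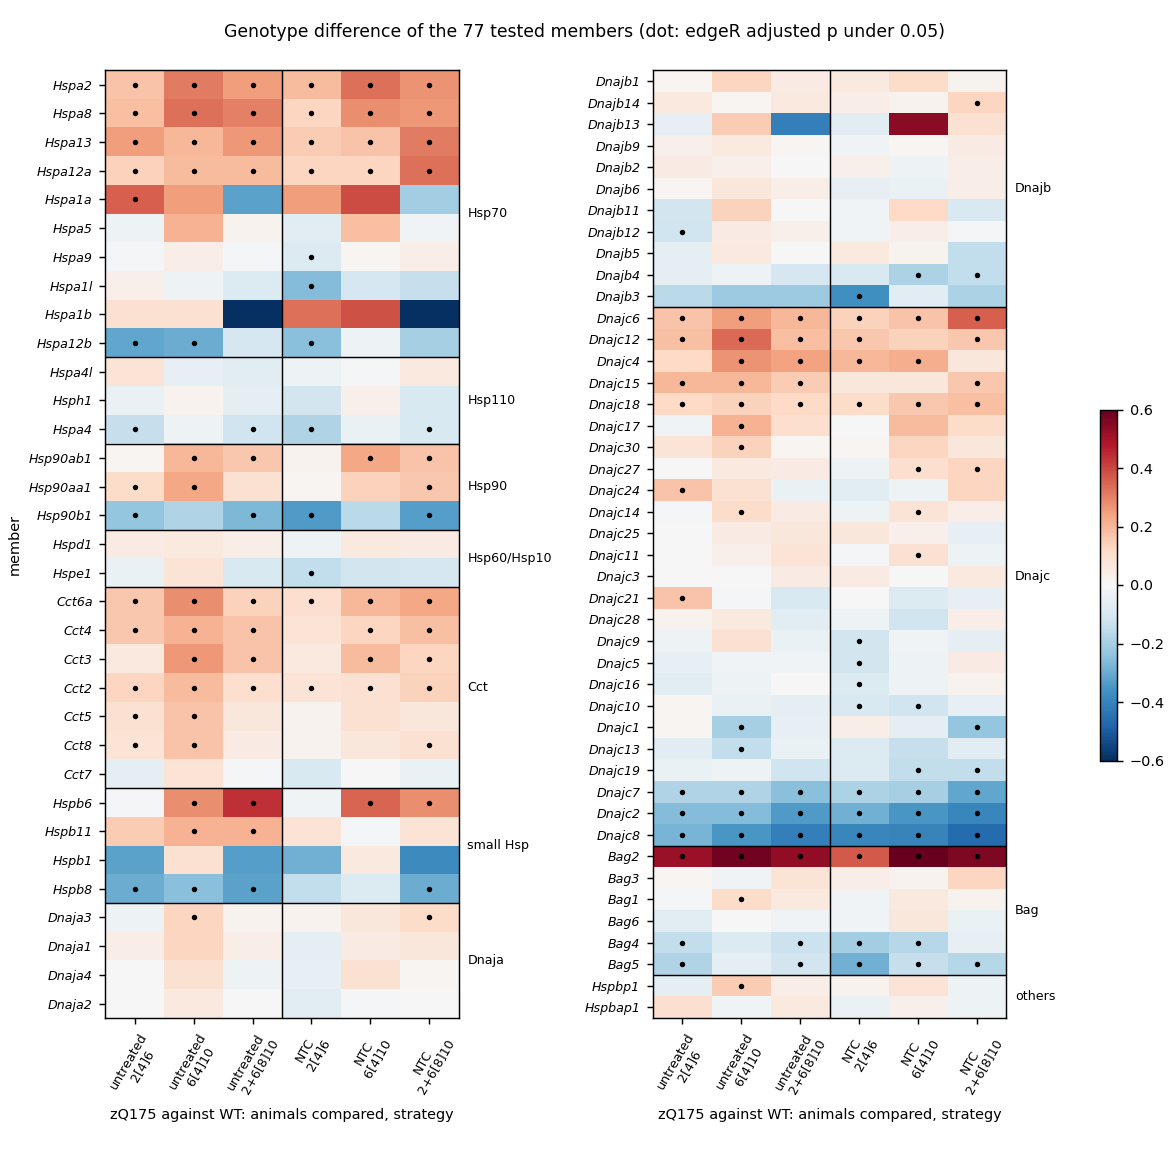
Log2 fold change of zQ175 against WT (colour, limited to 0.6 in either direction) for the 77 tested members, with columns for untreated and NTC animals of each strategy; dots mark an edgeR adjusted p under 0.05. The 9 members called higher and the 3 called lower in all 6 columns form unbroken rows of dots.

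Among the Hsp70 genes, Hspa8 (chr9:40800984-40810087), which uncoats clathrin vesicles and folds new proteins, set the scale. Levels here and below are TMM-scaled CPM. In untreated 2[4]6 its lowest, median and highest levels were 1459, 1632 and 1659 CPM in WT and 1684, 1843 and 1922 in zQ175. In 6[4]10 they were 1425, 1562 and 2060 in WT and 1791, 1951 and 2338 in zQ175, and in 2+6[8]10 1320, 1447 and 1760 against 1757, 1804 and 1989. The groups did not overlap in 2[4]6, and in both 10-month cohorts the highest WT animal lay above the lowest zQ175 animal. The log2 fold changes were 0.18 ± 0.05, 0.33 ± 0.07 and 0.30 ± 0.06 (SE, edgeR adjusted p = 0.0037, 0.00028 and 0.00013). In NTC animals the fold changes of Hspa8 were 0.13, 0.28 and 0.26. Hspa2, a constitutive Hsp70 abundant in testis, rose by 12.6%, 23.9% and 19.3% in 2[4]6, 6[4]10 and 2+6[8]10. Hspa13, an Hsp70 of the microsomal membrane, rose by 18.6%, 14.5% and 19.4%, and the groups did not overlap in 2[4]6 (WT 47.6 to 55.7, zQ175 58.4 to 65.4 CPM) or in 2+6[8]10 (48.9 to 54.6, 58 to 65.8). Hspa12a, a distant neuronal relative, rose by 10.2%, 14.4% and 14%. Its relative Hspa12b, known from endothelial cells, fell instead in untreated 2[4]6 (log2 fold change -0.31 ± 0.08, edgeR adjusted p = 0.0016) and 6[4]10 (-0.30 ± 0.11, edgeR adjusted p = 0.023). Beside Hspa12b, 7 of 8 endothelial and mural marker genes were called lower in the same 2 comparisons, and their part in the result was not tested. Hspa9, the mitochondrial Hsp70, was the least variable member and differed by -0.01, 0.04 and -0.01 on the log2 scale.

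The Hsp90 genes did not move together. Hsp90ab1 rose in untreated 6[4]10 (log2 fold change 0.20 ± 0.05) and 2+6[8]10 (0.16 ± 0.03, edgeR adjusted p = 6.6e-05), with 0.01 ± 0.04 in 2[4]6. In 2+6[8]10 its lowest, median and highest levels were 1406, 1497 and 1604 CPM in WT and 1601, 1672 and 1763 in zQ175. Hsp90aa1, the more inducible of the pair, rose in 2[4]6 (0.11 ± 0.04) and 6[4]10 (0.23 ± 0.07), with 0.09 ± 0.05 in 2+6[8]10. Hsp90b1 (chr10:86690209-86705509), which folds secreted and membrane proteins, went the other way. Its lowest, median and highest levels in untreated 2[4]6 were 330, 350 and 380 CPM in WT and 280, 296 and 342 in zQ175, and in 2+6[8]10 319, 351 and 399 against 272, 290 and 320. It fell by 14.7% and 17.1% in these strategies (edgeR adjusted p = 0.00015 and 1.8e-05), and differed by -0.18 ± 0.07 on the log2 scale in 6[4]10 (edgeR adjusted p = 0.054). In NTC animals the log2 fold changes of Hsp90b1 were -0.34, -0.16 and -0.33, and the groups did not overlap in 2[4]6 or 2+6[8]10. In the Hsp110 class, Hspa4 fell in untreated 2[4]6 (-0.14 ± 0.03) and 2+6[8]10 (-0.12 ± 0.03), with -0.03 ± 0.05 in 6[4]10, while Hsph1 differed by -0.04, 0.02 and -0.06.

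Of 10 members on a list for the endoplasmic reticulum, 1 was called higher (Hspa13) and 1 lower in each untreated comparison (Hsp90b1 in 2[4]6 and 2+6[8]10, Dnajc1 in 6[4]10). Of all genes 15.3%, 19.2% and 17.1% were called higher and 17.2%, 17% and 18.3% lower. The list leaves out Dnajb12 and Dnajb14, J proteins of the same membrane, of which Dnajb12 was called lower in 2[4]6 and Dnajb14 in no untreated comparison. The master chaperone Hspa5 was not called: its log2 fold changes were -0.03 ± 0.06, 0.21 ± 0.18 and 0.02 ± 0.12. Folding genes and stress regulators of this compartment outside the family were listed together (18 genes). Of these, 0, 1 and 0 were called higher and 6, 1 and 3 lower in untreated 2[4]6, 6[4]10 and 2+6[8]10. Those lower were Atf4, Atf6, Ddit3, Xbp1, Hyou1 and P4hb in 2[4]6, Atf6 in 6[4]10, and Atf6, Ddit3 and Sdf2l1 in 2+6[8]10. Atf4, Atf6, Ddit3 and Xbp1 are regulators and not folding genes. The median log2 fold changes of all 18 listed genes were -0.11, -0.03 and -0.05. Without the untreated zQ175 male 2, 2 of the 10 members were called lower in 6[4]10. Within the list of 18, the stress sensor Atf6 was lower in each untreated comparison, by -0.60 ± 0.05, -0.58 ± 0.05 and -0.51 ± 0.04. Ddit3, also of that list and induced by prolonged stress of the compartment, differed by -0.19 ± 0.06, -0.12 ± 0.06 and -0.21 ± 0.07. It was called in the first and the last.

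The 7 ring subunits of the chaperonin that the rule takes in (Cct2 to Cct8, all tested) gave 5 calls higher in untreated 2[4]6, 6 in 6[4]10 and 4 in 2+6[8]10, with none lower. All-gene shares were 15.3%, 19.2% and 17.1% higher. The median log2 fold changes of the 7 subunits were 0.09, 0.19 and 0.10. Without the untreated zQ175 male 2, 6 were again called in 6[4]10, with a median of 0.15. In NTC animals 2, 4 and 5 were called higher (all genes 15.9%, 16.8% and 20.7%) and none lower. Cct6a had the largest change of the ring in 6[4]10: its lowest, median and highest levels were 46.9, 50.4 and 57 CPM in WT and 57.3, 60.3 and 69 in zQ175, groups that did not overlap. Its log2 fold changes were 0.16 ± 0.04, 0.28 ± 0.05 and 0.14 ± 0.04. Cct2 (116 ± 2.89 in WT and 127 ± 3.34 CPM in zQ175, SD, n = 8 each, untreated 2[4]6) and Cct4 (80.7 ± 2.26 and 90.4 ± 1.44) rose in all 3 strategies, by 9.6%, 14.2% and 7.1% for Cct2 and by 12%, 15.3% and 12.7% for Cct4. Cct3 was called in the 10-month cohorts (0.26 ± 0.04 and 0.17 ± 0.03), and had 0.06 ± 0.05 at 6 months. Cct5 and Cct8 were called in 2[4]6 and 6[4]10 and missed the threshold in 2+6[8]10 (0.07 ± 0.04 and 0.05 ± 0.03). Cct7, the ring subunit with the most transcripts per length, differed by -0.06 ± 0.04, 0.08 ± 0.04 and -0.01 ± 0.03 and was called in none. The eighth ring subunit is encoded by Tcp1, which the naming rule does not take in. It was called in untreated 6[4]10 only (0.11 ± 0.04), with 0.02 ± 0.03 in 2[4]6 and 0.07 ± 0.04 in 2+6[8]10.

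Among the J proteins, 6, 8 and 5 of 25 tested Dnajc genes were called higher in untreated 2[4]6, 6[4]10 and 2+6[8]10, where 15.3%, 19.2% and 17.1% of all genes were. Called lower were 3, 5 and 3, where 17.2%, 17% and 18.3% of all genes were, and the difference between J protein classes was not tested. The 6[4]10 counts include Dnajc17 and Dnajc30 (higher) and Dnajc13 (lower). In these, zQ175 male 2 had 10.7, 38 and 43.9 CPM. The other 7 animals of its group ran from 7.31 to 9.63, 28.8 to 31.3 and 62.5 to 67.4. Under other settings the 3 calls held in 9, 5 and 11 of 15 recalculations. Of 11 tested Dnajb genes only Dnajb12, an endoplasmic reticulum J protein, was called, lower in 2[4]6 (-0.12 ± 0.03), and of 4 Dnaja genes only the mitochondrial Dnaja3, higher in 6[4]10 (0.13 ± 0.03). Dnajc6, the neuronal auxilin that recruits Hspa8 to clathrin coats, had a median of 186 CPM and a highest level of 191 in untreated WT of 2+6[8]10, and in zQ175 ran from 202 to 225, above every WT animal. It rose by 12.3%, 18.6% and 15.2% in the 3 strategies. Its ubiquitous relative Gak, outside the family, had -0.06 ± 0.04, 0.03 ± 0.03 and 0.07 ± 0.03, and was called in the last. Dnajc5, a synaptic vesicle J protein, differed by -0.05, -0.02 and -0.02. Dnajc12, known for a role with aromatic amino acid hydroxylases, rose by 13.6%, 26.4% and 13%, the mitochondrial Dnajc15 by 14.7%, 14.8% and 10.8%, and Dnajc18 by 8.6%, 10.4% and 8.4%.

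Among the members called lower, Dnajc8 (chr4:132535550-132553742), a nuclear J protein found with splicing complexes, fell most in both 10-month cohorts. Its lowest, median and highest levels were 89.6, 103 and 108 CPM in untreated WT of 2[4]6 and 76.7, 82.3 and 90.9 in zQ175. In 6[4]10 they were 91.8, 99.9 and 106 against 72.9, 76.6 and 90.3, and in 2+6[8]10 87.2, 101 and 106 against 72.9, 74.9 and 77.7. Every zQ175 animal lay below every WT animal in both 10-month cohorts, and in 2[4]6 the groups overlapped narrowly. It fell by 17.9%, 21.4% and 24.8% (edgeR adjusted p = 6e-10, 5.6e-10 and 5.4e-14). In NTC animals its log2 fold changes were -0.39, -0.40 and -0.46, and the groups did not overlap in any strategy. Dnajc2 (chr5:21757267-21785251), a ribosome-associated J protein, fell by 16.6%, 16.6% and 21%. In 2+6[8]10 its WT levels ran from 50.3 to 61.5 CPM (median 53.6) and its zQ175 levels from 40.3 to 45.8 (median 43.4). It lies 13.1 Mb from Htt on the same chromosome, as do Dnajb6 (5.1 Mb away, not called), Hspb8 (81.6 Mb) and Cct6a (95.0 Mb, higher in all 6 genotype comparisons). Dnajc30, Hspb1 and Hsph1 lie farther off, at 100.2, 101.1 and 114.8 Mb, of which Dnajc30 was called, higher in untreated 6[4]10. That call held in 5 of 15 recalculations under other settings. A part of sequence linked to the knock-in allele was not tested. Dnajc7 (chr11:100582818-100620168), a cytosolic partner of Hsp70 and Hsp90, fell by 11.6%, 11.9% and 15.7%, with WT levels from 182 CPM and zQ175 levels up to 164 in 2+6[8]10, so that the groups did not overlap. Exons of Dnajc7 overlap those of the oligodendrocyte gene Cnp and of Nkiras2 on the opposite strand, and whether counting used strand is not given in the sources used here. Cnp itself differed by 0.03, 0.06 and -0.02 on the log2 scale and was not called. Exons of other members named here overlap other genes too, among them Cct6a (Psph), Bag2 (Gm37905), Hspa12a (Eno4) and Hspb6 (Lin37 and Proser3) on the opposite strand. Those of Hsp90b1 overlap 1810014B01Rik on the opposite and Gm15344 on the same strand.

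Among the Bag genes, Bag2 (chr1:33745484-33757795), an exchange factor that restrains the ubiquitin ligase Stub1, showed the largest rise of the members called. Its lowest, median and highest levels were 2.53, 3.29 and 4.09 CPM in untreated WT of 2[4]6 and 4.15, 4.62 and 5.7 in zQ175, and in 2+6[8]10 2.79, 2.98 and 3.35 against 3.51, 4.61 and 5.14. The groups did not overlap in these strategies. It rose by 43.8%, 49.3% and 44.9% in the 3 strategies (edgeR adjusted p = 0.00017, 8.6e-05 and 5.1e-05), with 0.37, 0.64 and 0.56 on the log2 scale in NTC animals. Bag5 fell in untreated 2[4]6 (-0.18 ± 0.05) and 2+6[8]10 (-0.11 ± 0.04), with -0.06 ± 0.05 in 6[4]10. Bag3, an inducible partner of Hspb8 in selective autophagy, was not called (0.01, -0.02 and 0.08). Hspb8 fell by 18.8%, 16.1% and 19.9% in untreated animals, with medians of 11 and 9.46 CPM in WT and zQ175 of 2[4]6, groups that overlapped. Its call was the least firm of those made in all 3 strategies: it held in 31 of 42 recalculations under other settings, and in 6[4]10 it was not called without the animals high in Hspa1b described below (-0.22) or without male 2 (-0.26). Hspb6, a small Hsp known from muscle and vessels, rose in the 10-month cohorts, by 21.4% and 35.4%, with -0.01 ± 0.10 at 6 months. Without male 2 its change in 6[4]10 was 0.26 on the log2 scale and not called. Hspb11 (0.21 in both 10-month cohorts) and Bag1 (0.11 in 6[4]10) were called with that animal, and without it had 0.16 and 0.07 in 6[4]10 and no call.

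**Figure D3:**
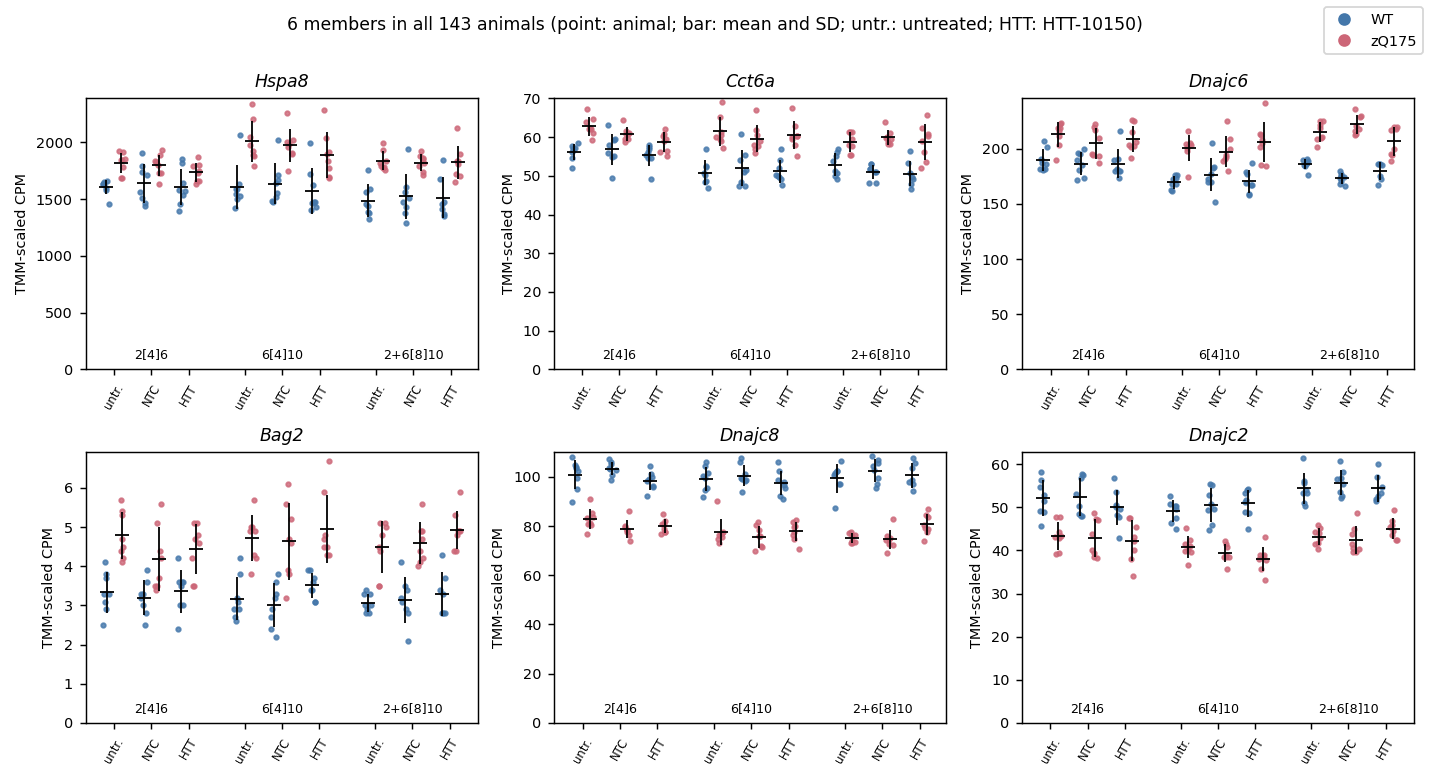
TMM-scaled CPM (vertical axes from 0) of Hspa8, Cct6a, Dnajc6, Bag2, Dnajc8 and Dnajc2 in all 143 animals, by strategy and treatment; each point is an animal, bars are mean and SD, and colours are genotypes. Dnajc8 of untreated 2+6[8]10 animals runs from 72.9 to 77.7 CPM in zQ175 and from 87.2 to 106 in WT.

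Markers of the cells around these genes moved with genotype too. Of 12 medium spiny neuron markers, 11 were called lower in each of the 6 comparisons, with median log2 fold changes from -0.86 to -0.66, and 4 or 5 of 8 astrocyte markers were called lower. The astrocyte marker S100b went the other way: it was called higher in the 3 untreated comparisons (0.41 ± 0.07, 0.35 ± 0.07 and 0.26 ± 0.07 in 2[4]6, 6[4]10 and 2+6[8]10) and in NTC animals of 2[4]6 (0.27 ± 0.07) and 2+6[8]10 (0.22 ± 0.07). In bulk tissue, fewer cells of a type and less RNA per cell cannot be told apart, and the part of either in the members' differences was not tested. The summed markers of oligodendrocytes ran from 9308 to 11292 CPM in untreated WT of 2[4]6 and from 8108 to 11213 in zQ175, ranges that overlapped. None of the listed markers of any cell type was at 0 in all animals.

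Of the 13 members known for induction by heat or proteotoxic stress, Hspa1a, Hspa8 and Hsp90aa1 were called higher in untreated 2[4]6 (15.3% of all genes were), Hspa8 and Hsp90aa1 in 6[4]10 (19.2%) and Hspa8 in 2+6[8]10 (17.1%). None was called lower. Their median log2 fold changes were 0.04, 0.09 and -0.06. In 2[4]6 the lowest, median and highest levels of Hspa1a were 5.75, 6.53 and 8.36 CPM in WT and 7.58, 8.84 and 9.66 in zQ175 (log2 fold change 0.36 ± 0.12, edgeR adjusted p = 0.015). In 2+6[8]10 they were 6.55, 8.34 and 49 against 8.18, 8.98 and 15.9, where a single WT animal stood far above the rest. Hspa1b had 2.87, 4.29 and 47.6 CPM in WT of that strategy and 3.59, 4.38 and 10.1 in zQ175, and a log2 fold change of -0.75 ± 0.64. Without the animals over 20 CPM of Hspa1b, a setting chosen after seeing the data, Hspa1b had 0.17 and Hspa1a 0.34 in that comparison, so the sign of both rested on those animals. The same setting gave 6 called higher of the 13 stress members in untreated 6[4]10, 2 in untreated 2+6[8]10, and 9 in NTC animals of 2+6[8]10 (2 higher and 1 lower with all animals). The share of all genes called under this setting is not given. With all animals, 20.7% of all genes were called higher in NTC animals of 2+6[8]10. Because the animals left out were chosen by the level of 1 of these genes and all were WT, those counts are a description only. Of the cold-inducible genes Cirbp and Rbm3, 1 was called higher in zQ175 in each untreated comparison, and their part in these results was not tested. The counts over all members were 33 and 25 in untreated 6[4]10 and 2+6[8]10 without them, as with them.

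Of 13 tested members and partners known to suppress polyglutamine aggregation, Hspa8 and Cct2 were called higher in each untreated comparison, Cct5 in 2[4]6 and 6[4]10 and Cct3 in the 10-month cohorts. Hspb8 was called lower in each, and Hspa4 in 2[4]6 and 2+6[8]10. All-gene shares in 2[4]6, 6[4]10 and 2+6[8]10 were 15.3%, 19.2% and 17.1% higher and 17.2%, 17% and 18.3% lower. The J proteins best known for this activity did not pass the test. Dnajb6 differed by 0.01 ± 0.04, 0.07 ± 0.04 and 0.04 ± 0.03, Dnajb2, a neuronal J protein, by 0.05 ± 0.04, 0.03 ± 0.04 and -0.00 ± 0.04, and Dnajb1 by 0.01 ± 0.05, 0.13 ± 0.06 and 0.05 ± 0.13.

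Regulators and partners of the family outside the naming rule were taken from a list of 21 genes. Of these, 5, 9 and 6 were called higher and 1, 0 and 1 lower in untreated 2[4]6, 6[4]10 and 2+6[8]10. Their median log2 fold changes were 0.06, 0.07 and 0.04. All-gene shares in these comparisons were 15.3%, 19.2% and 17.1% higher and 17.2%, 17% and 18.3% lower. The Hsp90 activator Ahsa2 (0.60 ± 0.07, 0.53 ± 0.10 and 0.52 ± 0.09) and the Hsp90 immunophilin Fkbp4 (0.21 ± 0.05, 0.32 ± 0.06 and 0.28 ± 0.06) rose in all 3, and Stip1, which bridges Hsp70 and Hsp90, rose in both 10-month cohorts (0.24 ± 0.07 and 0.14 ± 0.05). The ubiquitin ligase Stub1, which tags chaperone clients, fell in 2[4]6 and 2+6[8]10 (-0.16 ± 0.04 and -0.10 ± 0.03). Hsf1 had -0.08 ± 0.06, -0.12 ± 0.05 and -0.11 ± 0.06 and was not called in untreated animals. Of 6 prefoldin subunits, which hand clients to the Cct ring, Vbp1 rose in all 3 (0.29 ± 0.07, 0.31 ± 0.04 and 0.23 ± 0.04) and Pfdn2 fell in 2[4]6 and 2+6[8]10 (-0.13 ± 0.04 and -0.12 ± 0.03). Of 9 tested mitochondrial members, 1, 4 and 2 were called higher and none lower, beside the same shares of all genes, with Dnajc15 in each.

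The size of the genotype difference was compared between strategies in a fit over all 143 animals. Between 6[4]10 and 2[4]6, 1 member was called, Dnajb12, where 0.835% of all genes were called. Its zQ175 against WT log2 fold change was -0.12 in 2[4]6 and 0.05 in 6[4]10, a difference of 0.16 ± 0.04 (edgeR adjusted p = 0.045), which did not hold when any 1 replicate number was left out. DESeq2 called 2 members, and 16 had an unadjusted p under 0.05. The call was also absent without the untreated zQ175 male 2. Between 2+6[8]10 and 2[4]6, edgeR and DESeq2 called 0 members, 7 had an unadjusted p under 0.05, and 0.0675% of all genes were called. The difference of the genotype effect between sexes was called for 0 members by edgeR in each strategy (0% of all genes), with 1, 15 and 6 members at an unadjusted p under 0.05. All shares of all genes are of calls at adjusted p. No share at an unadjusted p under 0.05 is given, so the unadjusted counts here and below describe the members only.

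HTT-10150 was compared with NTC within each genotype, the question being whether lowering Htt moves these genes. In zQ175 animals of 2+6[8]10, 5 of 77 members were called, all lower, where 3.16% of all genes were called. Dnajc5, the synaptic vesicle J protein, had lowest, median and highest levels of 339, 355 and 362 CPM with NTC and 316, 324 and 341 with HTT-10150. Only the end of each range touched, and it fell by 7.5% (log2 fold change -0.11 ± 0.02, edgeR adjusted p = 0.0037). Dnajb14, an endoplasmic reticulum J protein, had 148 ± 6.2 CPM with NTC and 134 ± 5.34 with HTT-10150 (SD, n = 8 each; -0.14 ± 0.03, edgeR adjusted p = 0.0053). Dnajc13, which works at endosomes, had 68.8, 74.1 and 77.5 against 59, 66.5 and 72.2 (-0.15 ± 0.04, edgeR adjusted p = 0.009). Dnajc27 (-0.11 ± 0.03), a J protein with a GTPase domain, and the mitochondrial Hspa9 (-0.08 ± 0.02) completed the 5. All 5 NTC medians lay within the range of the untreated zQ175 animals of that strategy. In WT animals the same genes had -0.10 ± 0.04 (Dnajc13), 0.03 (Dnajb14), 0.00 (Dnajc5), and -0.02 (Dnajc27 and Hspa9). With library slopes on transcript length and GC content as covariates none of the 5 was called, with fold changes from -0.10 to -0.06, and 0 to 4 calls were left when 1 replicate number was dropped.

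Of the members that differed most by genotype, none was called for HTT-10150 in that comparison. Hspa8 had 0.00 ± 0.06, Cct6a -0.03 ± 0.04, Bag2 0.11 ± 0.10, Dnajc6 -0.10 ± 0.03 (edgeR adjusted p = 0.052) and Dnajc8 0.11 ± 0.03 (edgeR adjusted p = 0.057). For the last pair the sign was opposite to that of the genotype difference. The zQ175 animals given NTC enter both this comparison and the genotype comparison within NTC, so this is a description and no test of recovery. Set against each other, the HTT-10150 effects of the genotypes differed for 0 members by edgeR and 3 by DESeq2 (10 with an unadjusted p under 0.05; 0.529% of all genes called). Dnajb14 came nearest, with -0.16 ± 0.04 (edgeR adjusted p = 0.058).

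The remaining HTT-10150 comparisons called 0 members with edgeR and 0 with DESeq2. In zQ175 of 2[4]6, where Htt was not lower with HTT-10150, and of 6[4]10, where 0% of all genes were called, 3 and 1 members had an unadjusted p under 0.05. In WT, 5, 2 and 2 members did in 2[4]6, 6[4]10 and 2+6[8]10, where 0.00636%, 0% and 0.0129% of all genes were called. The contrast of these effects gave 2 and 1 such members in 2[4]6 and 6[4]10 (0% of all genes called). NTC against untreated also called 0 members with edgeR. In zQ175, 7, 5 and 0 members had an unadjusted p under 0.05 in the 3 strategies (0% of all genes called in each), and in WT 3, 1 and 5 did (0%, 0% and 0.181%). DESeq2 called 0 members in 5 of these 6 comparisons and 1 in WT of 2+6[8]10. The shares of all genes are of calls at adjusted p and are no measure for the unadjusted counts.

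Most calls between sexes were made in the 6-month animals, and the difference between strategies was not tested. In 2[4]6, 7 members were called higher in males (8.44% of all genes) and 14 lower (8.19% of all genes), over all 6 groups with group as a term. Lower in males were 6 of the 13 stress members: Hspa1b (-0.31 ± 0.09), Hsph1 (-0.17 ± 0.03), Hsp90aa1 (-0.16 ± 0.02), Hspa4l (-0.16 ± 0.03), Hspd1 (-0.10 ± 0.02) and Dnaja1 (-0.08 ± 0.02). Hspa4 (-0.13 ± 0.02), Hspa5 (-0.13 ± 0.04) and Hsp90b1 (-0.11 ± 0.03) were lower as well. Higher in males were Hspa2 and Hspb6 (0.17 each), Hspa12b, Hspbp1, Bag6, Dnajc11 and Bag1. In 6[4]10 only Dnajc11, a mitochondrial J protein, was called, higher in males (0.07 ± 0.02), and in 2+6[8]10 Hspa2 (0.12 ± 0.03) and Hspa4 (-0.07 ± 0.02), where 2.21% and 2.1% of all genes were called. The cold-inducible genes Cirbp and Rbm3 were both higher in males of 2[4]6 (median 0.31) and 6[4]10 (median 0.30), and their part in these results was not tested. The count of 21 in 2[4]6 fell to 11 when animals with the same library number were kept as a block, and to 8 with length and GC slopes as covariates.

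Age, cohort and handling cannot be told apart between strategies. In untreated WT, 6[4]10 against 2[4]6 gave 1 member higher (8.49% of all genes) and 15 lower (8.06%), with Dnajc28 (-0.26 ± 0.06), Dnaja3 (-0.18 ± 0.03), Dnajc6 (-0.16 ± 0.04), Cct6a (-0.15 ± 0.04), Dnajb6 and Hspa4 (-0.14 ± 0.04 each) the most lowered and Dnajc1 (0.22 ± 0.06) the one higher. The other 10-month cohort, 2+6[8]10 against 2[4]6, gave 5 higher (6.62%) and 12 lower (8.37%), with Hspbp1 (-0.23 ± 0.05), Cct3 (-0.18 ± 0.04), Cct7 (-0.16 ± 0.03) and Dnajb12 (-0.14 ± 0.03) lowest. Hspa1a (0.87 ± 0.28) was called higher there, and had 0.21 and no call without the animals over 20 CPM of Hspa1b. Both cohorts of the same age also differed from each other: 2+6[8]10 against 6[4]10 gave 11 members higher (6.08%) and 6 lower (7.06%), with Dnajc28 (0.25 ± 0.06), Hspa4l (0.20 ± 0.05), Hspa12b (-0.38 ± 0.10) and Hspbp1 (-0.19 ± 0.05) among them. The count of 17 for 2+6[8]10 against 2[4]6 was 0 without replicate number 3, 3 without number 4, 9 without the animals high in Hspa1b and 6 once length and GC slopes were fitted. For 6[4]10 against 2[4]6, leaving out a replicate number gave 7 to 14 in place of 16. The count of 2+6[8]10 against 6[4]10 fell to 5 without replicate number 2, to 7 without the animals high in Hspa1b and to 0 with length and GC slopes as covariates.

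Animals of the same group and sex differed least in Hspa9 (SD 0.05 on the log2 scale) and most in Hspa1b (SD 0.74), with a median SD of 0.10 over the 77 members. Only Hspa1b, Dnajb13, Hspa1a, Hspb1 and Dnajb3 exceeded 0.3. In 6 animals Hspa1b was over 20 CPM, from 24.2 to 47.6, while the other 137 animals ran from 1.85 to 14.4 with a median of 4.04. All 6 were WT: 5 were males of 2+6[8]10 (untreated 47.6, NTC 43.6 and 24.2, HTT-10150 37 and 25 CPM) and 1 was an untreated female of 6[4]10 (27.4). Their median Hspa1a was 35.4 CPM against 8.53 in the others, their Dnajb1 72.9 against 48.3, their Hspb1 10.4 against 6.08, and their Hsph1 379 against 291. Hspa5 was 320 against 227, while the ratio of medians was 1.05 for Hspa8 and 1.08 for Hsp90aa1. These animals were set apart by Hspa1b, so the values are a description.

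Library names carry a first number whose meaning the labels do not give, and animals that share it were alike in these genes. There were 63 numbers, 15 with a single animal, and 128 animals shared one. Among 110 pairs of animals that shared a number but belonged to different groups, deviations from the means of group and sex correlated with a median r of 0.13 over 16295 genes and 0.27 over the 77 members. The highest were Hsph1 (0.69), Bag6 (0.62), Dnajb1 (0.59), Hspa5 (0.58) and Hspb1 (0.55). Of the 6 animals high in Hspa1b, 3 shared number 89 (untreated, NTC and HTT-10150). Animals that share a number are not independent, and p-values that take them so may be too small. With the number as a random block in limma, chosen after seeing the data, the genotype counts were 29, 34 and 25 members in untreated animals of 2[4]6, 6[4]10 and 2+6[8]10 (28, 33 and 25 with edgeR) and 28, 26 and 29 in NTC animals (27, 25 and 30).

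**Figure D4:**
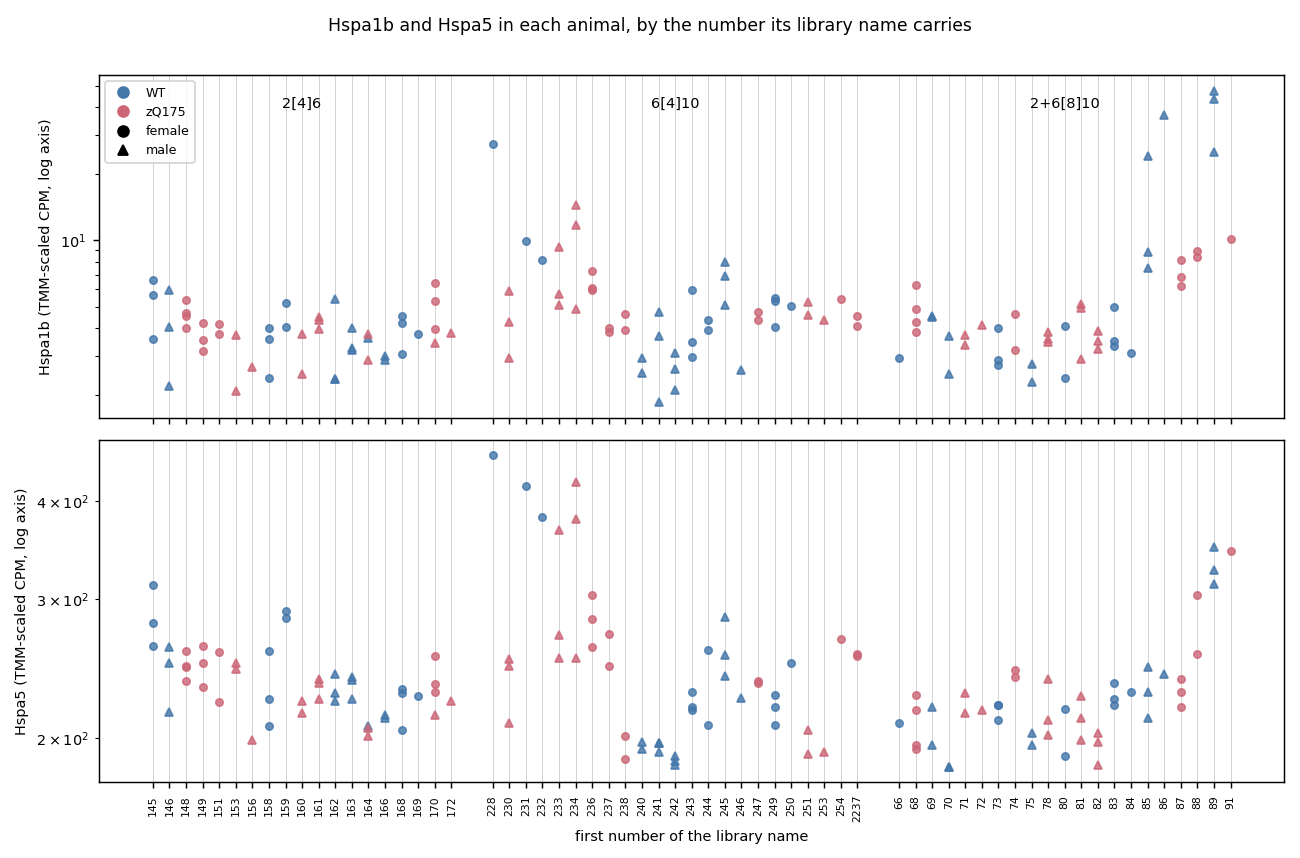
Hspa1b (upper panel) and Hspa5 (lower panel) as TMM-scaled CPM on log axes in each of 143 animals, placed by the first number of its library name within each strategy; colours are genotypes, circles females and triangles males. The 3 animals of number 89 in 2+6[8]10 lie at 25, 43.6 and 47.6 CPM of Hspa1b, far above the median of 4.04.

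Within groups, the stress members rose and fell together from animal to animal. After the mean of each group and sex was taken off, Hsph1 correlated over 143 animals with Hspa8 (Pearson r = 0.78, Spearman rho = 0.72), Dnaja1 (0.76, 0.67), Hspa1b (0.75, 0.69), Hspd1 (0.69, 0.67), Hspa1a and Hspa4l (r = 0.66 each) and Hsp90aa1 (r = 0.60). Each had a permutation p of 1e-05, the smallest that 100000 permutations can give, and an adjusted p of 1.2e-05 over the 27 pairs computed. Dnajb4 and Bag3 followed least (r = 0.27 each, permutation p = 0.0022 and 0.0021, adjusted p = 0.0023 for each). By rank, Dnajb4 did not pass (rho = 0.15, permutation adjusted p = 0.076), and its r ran from -0.43 within 2[4]6 to 0.72 within 2+6[8]10. The permutations moved single animals within a strategy, so animals that share a library number were taken as independent. The permutation p-values here and below may therefore be too small. Without the 2 animals farthest from the median of Hsph1, r with Hspa8 was 0.76 and with Hspa1b 0.72. Without the 6 animals high in Hspa1b they were 0.73 and 0.69, and over means of library numbers 0.85 and 0.79. The median r with Hsph1 was 0.39 within 2[4]6 and 0.81 within 2+6[8]10, and Dnajb1 ran from -0.29 within 2[4]6 to 0.85 within 2+6[8]10.

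Correlations among the endoplasmic reticulum members were computed with Hspa5, and none was computed between Hspa5 and Hsph1. The highest were Hsp90b1 (r = 0.77, rho = 0.67), Dnajb11 (0.70, 0.55) and Dnajc3 (0.69, 0.62), each with a permutation p of 1e-05. Within 2[4]6, 6[4]10 and 2+6[8]10 the r of Hsp90b1 was 0.64, 0.84 and 0.75. Dnajc16 (r = -0.48, rho = -0.45) and Dnajc10 (r = -0.36, rho = -0.24) went against Hspa5, and Dnajc25 showed no relation (r = 0.09, permutation p = 0.27). Hspa5, Hsp90b1 and Dnajc3 are the 3 members with the endoplasmic reticulum element in the promoter window printed or named above. Among the ring subunits, Cct5 correlated with the other 6 at r from 0.55 (Cct6a) to 0.65 (Cct4), with Cct7 at 0.63 although Cct7 showed no genotype call. All 6 had a permutation p of 1e-05. The median r with Cct5 was 0.45 within 2[4]6 and 0.72 within 6[4]10.

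**Figure D5:**
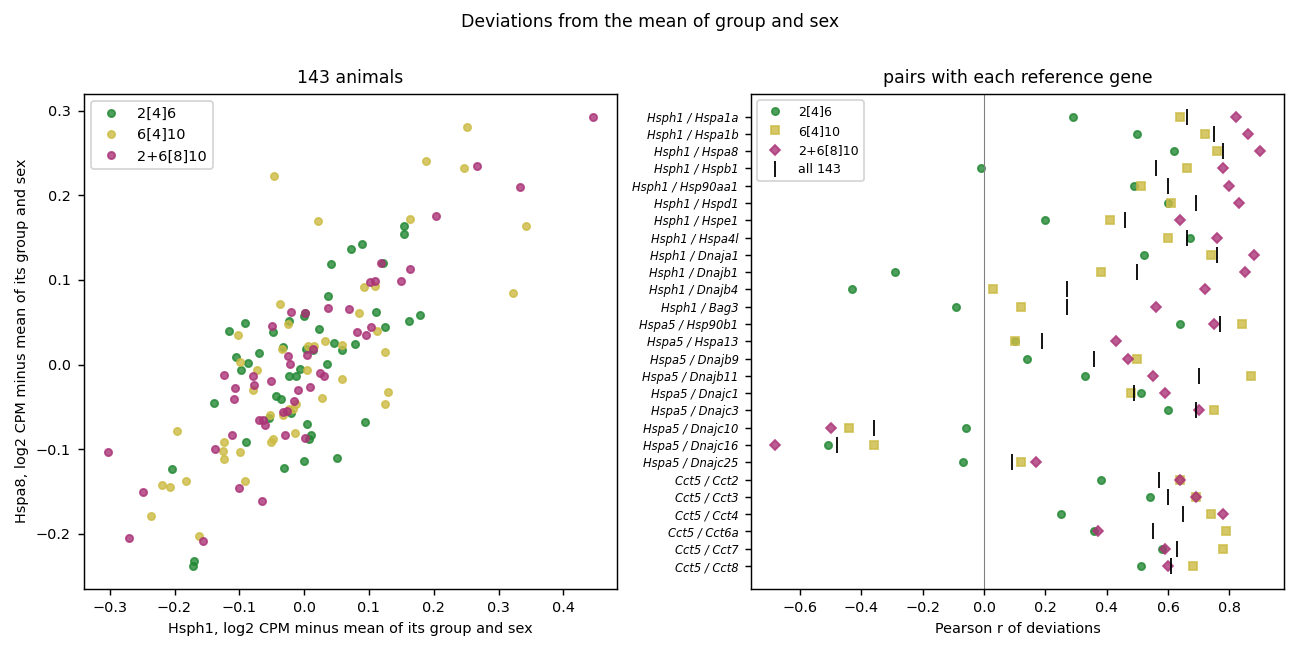
Left, deviation of Hspa8 against that of Hsph1 (log2 CPM minus the mean of group and sex) in 143 animals, coloured by strategy; right, Pearson r of the deviations for the 27 pairs with Hsph1, Hspa5 or Cct5, over all animals (ticks) and within each strategy (symbols). Hsph1 and Hspa8 rise together (r = 0.78), and Dnajc16 and Dnajc10 lie left of 0 with Hspa5.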

How the data were processed

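RNA of the striatum was sequenced as polyA libraries, 1 per mouse. The authors deposited RSEM expected counts per gene on GRCm38, per the submitters' processing notes; their versions are not given in the sources used. A table deposited with FPKM in its name has columns that sum to 1000000 and was read as TPM. Counts were rounded to whole numbers. Entries naming no mouse gene held 5.91e-06% of counts and were left out. Library totals ran from 12.55 to 29.19 M counts (median 18.85 M), which limits precision for members near 1 CPM.

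The members and all lists were chosen with earlier results of these data known. Of 99 entries matching the names, 11 were not protein-coding in GENCODE M21 and were left out. Cct6a, protein-coding in RefSeq only, was kept. Each strategy was fitted separately with edgeR 4.0.16 (quasi-likelihood F test, filterByExpr, TMM scaling, 6 groups and sex as terms, Benjamini-Hochberg adjustment over all genes), and comparisons between strategies came from a fit of 16295 genes over 143 animals. Levels are TMM-scaled CPM computed from the counts, with a prior of 0.5 on the log2 scale. P-values measure the spread between these animals. Named were fixed core members, those called in all 3 strategies, the 6 largest called changes per direction elsewhere, subfamily extremes and up to 4 genes per list; further genes named were chosen after their values were seen. Alternatives were DESeq2 1.42.0, RLE scaling, no filter, no sex term, 1 joint fit, a replicate block, length and GC slopes, each replicate number left out, and, chosen after seeing the data, the library number as a block (limma 3.58.1) and leaving out the animals over 20 CPM of Hspa1b or the untreated zQ175 male 2 of 6[4]10. The count test was tested on simulated data. R 4.3.3, Python 3.11.15 and numpy 2.4.6 were used.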

Additional observations from a re-analysis of the deposited data

Results flagged for a closer look

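Gaps between the highest or lowest animal and its nearest neighbour were examined on the CPM scale in 118 group values of 8 animals each (untreated groups, and zQ175 of 2+6[8]10 given NTC or HTT-10150), with a Dixon criterion that chance meets in about 1 of 20 groups. It was met in 14, all in untreated groups. The values that follow are log2 CPM, with the nearest animal in brackets. In WT of 6[4]10 the highest animal had 4.41 for Hspa1a (3.23), 4.78 for Hspa1b (2.57) and 11.01 for Hspa8 (10.67). In WT of 2+6[8]10 the highest had 5.61 for Hspa1a (3.21) and 5.57 for Hspa1b (3.15), and the lowest 7.46 for Dnajc6 (7.52). In WT of 2[4]6 the lowest Hspa8 was 10.51 (10.62). In zQ175 of 6[4]10 the highest Cct2 was 7.21 (6.98), the highest Dnajc12 4.17 (3.88), the highest Dnajc7 7.58 (7.43), the highest Dnajc8 6.50 (6.28) and the lowest Dnajc6 7.45 (7.63). These 5 values came from male 2 of that group, the library that stood apart. In zQ175 of 2+6[8]10 the highest Cct2 was 7.04 (6.91) and the highest Hspa1b 3.33 (2.64).

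The genotype difference of Dnajb12 differed between 6[4]10 and 2[4]6 by 0.16 ± 0.04 on the log2 scale (edgeR adjusted p = 0.045, interaction term).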

How the results depend on the processing

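Counts of members called by genotype in untreated animals and in NTC animals of 2+6[8]10 stayed within 1.5 times of their value under every alternative run. Leaving out each replicate number in turn gave 15 to 23 calls by genotype in NTC animals of 2[4]6 (27 with all animals) and 14 to 24 in 6[4]10 (25), 7 to 26 by sex in 2[4]6 (21), 0 to 5 in 6[4]10 (1) and 0 to 1 in 2+6[8]10 (2), 0 to 4 for HTT-10150 in zQ175 of 2+6[8]10 (5), 0 to 0 for the genotype difference of 6[4]10 against 2[4]6 (1), and 7 to 14, 0 to 16 and 5 to 11 in WT of 6[4]10 against 2[4]6, 2+6[8]10 against 2[4]6 and 2+6[8]10 against 6[4]10 (16, 17 and 17). Fewer animals are compared in each. DESeq2 gave 8 calls for HTT-10150 in zQ175 of 2+6[8]10, 3 for its difference between genotypes, 1 for NTC in WT of 2+6[8]10, 4 for sex in 6[4]10 and 2 for the genotype difference. A single fit over all animals gave 3 for HTT-10150, and 4 and 1 for sex in 6[4]10 and 2+6[8]10. Length and GC slopes (known for 99.3% of genes) gave 0 for HTT-10150, 8 and 2 for sex in 2[4]6 and 6[4]10, 0 for the genotype difference, and 6 and 0 in WT of 2+6[8]10 against 2[4]6 and 6[4]10. With no filter, sex in 6[4]10 and 2+6[8]10 gave 0 and 1 and the genotype difference 0, which was also 0 with RLE scaling and with no sex term. With the library number as a block, sex gave 11, 0 and 1, and the contrast of HTT-10150 effects in 2+6[8]10 gave 3. Without the animals over 20 CPM of Hspa1b, sex in 6[4]10 and 2+6[8]10 gave 0 and 6, NTC in WT of 2+6[8]10 gave 1, the genotype difference 0, and WT of 2+6[8]10 against 2[4]6 and 6[4]10 9 and 7. Without the untreated zQ175 male 2 of 6[4]10, sex in 6[4]10 gave 2 and the genotype difference 0. The share of the top 3 members was 43.7% by CPM per kilobase. The median r was 0.45 and 0.72 for Cct5 within 2[4]6 and 6[4]10, and 0.39 and 0.81 for Hsph1 within 2[4]6 and 2+6[8]10. The cause of these shifts was not tested.

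Replicate numbers pair no animals by the labels, and 6 of 24 pairs of same-numbered groups had deviations correlated over 0.1 (-0.13 to 0.23). Whether animals with the same replicate number share more than the number was not tested. The replicate block gave 5 calls for the genotype difference of 6[4]10 against 2[4]6, and moved no other count by over 1.5 times. The 248 calls were recomputed under the alternatives, which gave 3281 values. Of these, 2740 kept direction and side of the threshold, 541 fell short of it, and 0 reversed. Values that were not called are outside this count. Among them, the sign of the genotype difference of Hspa1a and Hspa1b rested on the animals high in Hspa1b, as described above. Of the 16 genes called in all 3 untreated comparisons, each recomputed 42 times, Hspb8 kept its call in 31, Dnajc12 and Dnajc15 in 38, Cct2 and Hspa2 in 41, and the other 11 in all.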
